A study of Mus musculus with 8 samples.

Results

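Transcripts of 10 genes of the NF-kB system were followed in mpkCCD cells, which derive from the cortical collecting duct of the mouse: the 5 subunit genes Nfkb1, Nfkb2, Rel, Rela and Relb, and the 5 inhibitor and regulator genes Nfkbia, Nfkbib, Nfkbie, Nfkbiz and Tnfaip3. They were taken by official gene symbol from a table of 55414 genes, and each of the 10 symbols matched 1 gene. The cells had been grown with dDAVP, an agonist of the vasopressin V2 receptor, at 0.1 nM, which stayed present in both groups. For the last 24 h the cells of 4 libraries also received the V2 receptor antagonist tolvaptan at 50 nM. Those of the other 4 received vehicle (dDAVP alone). The comparison asks which transcripts differ when tolvaptan is added while the agonist of its receptor is present. Effects through the V2 receptor and other effects of tolvaptan cannot be told apart in this design. The cells of both groups were a recloned mpkCCD line grown on permeable supports with dexamethasone in the medium. The line derives from SV-PK/Tag mice, which carry a large T antigen transgene, so both groups share that transgene and the glucocorticoid. Whether the libraries of a group came from separate cultures is not stated in the sample records, and the spread behind each p-value may therefore be technical.

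NF-kB factors are dimers of subunits that share a Rel homology domain. In resting cells most dimers are held in the cytoplasm by IkB proteins, and the IKK kinase complex marks the IkB proteins for degradation when a receptor for a cytokine or a microbial product is engaged. The freed dimers enter the nucleus and bind kB sites, and among the genes they induce are those of their own inhibitors, which closes a negative feedback loop. In kidney tubule cells the pathway is known for its part in inflammatory injury.

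The values are TPM, the share of each transcript among all transcripts of a library after correction for its length, so levels can be compared between genes. The TPM of every library are scaled to a common total and the reads behind them are not known, so no counting interval can be given. Aqp2, the vasopressin-regulated water channel, fell with tolvaptan by 3.49 on the log2 scale (SE 0.10, adjusted p = 3.11e-08 from limma), and Avpr2, the V2 receptor gene, fell by 0.40 (adjusted p = 0.00049 from limma). Both belong to a list of 11 collecting duct epithelial markers, of which 9 were tested, while Tfap2b and Elf5 did not exceed 1 TPM. The list did not move in 1 direction: the keratins Krt8 (-0.37) and Krt18 (-0.52) were also lower (adjusted p = 0.00335 and 0.000251), and the sodium channel subunit Scnn1a (0.62) and the adhesion molecule Epcam (0.15) were higher (adjusted p = 0.00238 and 0.0329), all by limma. Epcam lost its call in 11 of 18 alternatives (adjusted p up to 0.136). None of 6 fibroblast markers and none of 5 endothelial markers exceeded 1 TPM. Among 8 immune cell markers, only Cd68 and Csf1r did, and the summed level of the list was 19.6 to 23.5 TPM with dDAVP alone and 22.1 to 26.1 TPM with tolvaptan. Csf1r, the receptor for macrophage colony stimulating factor, rose by 0.28 on the log2 scale (adjusted p = 0.0385 from limma; up to 0.111 in the 9 of 18 alternatives that lost the call), while Ptprc, which marks all leukocytes, was at 0.35 to 0.68 TPM in the 8 libraries. Among the markers of other tubule cells, only Atp6v1b1 of intercalated cells and Lrp2 of proximal tubule exceeded 1 TPM. The 0.32 of Atp6v1b1 on the log2 scale did not pass (adjusted p = 0.276 from limma). Lrp2, an endocytic receptor, rose without overlap from 8.17 ± 0.279 to 11.2 ± 0.396 TPM (SD over 4 libraries each; 0.41 on the log2 scale, adjusted p = 0.0108 from limma), and the call held in 15 of 17 alternatives. Only its tolvaptan libraries exceeded 10 TPM, the level a gene had to pass to be tested, so the call is not taken as support. Groups did not overlap in 19.5% of all genes with a library above 1 TPM. The other 4 proximal tubule markers had group means of at most 0.112 TPM. Whether these markers have a part in the values below was not tested.

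One library deviated more than the others. Each library was set against the mean of the other libraries of its own group on the log2(TPM + 1) scale. The root mean square deviation was 0.334 to 0.351 for the dDAVP libraries and 0.365 to 0.392 for the tolvaptan libraries other than replicate 4. Tolvaptan replicate 4 had the largest, 0.445. It held the highest value of the 4 tolvaptan libraries for 7 of the 10 genes (Nfkb1, Nfkb2, Rela, Relb, Nfkbia, Nfkbib and Nfkbiz) and the lowest for 2 (Rel and Tnfaip3). Over all genes tested it was the highest of the 4 in 40.7% and the lowest in 36.1%. Dixon's Q, a test for a single outlying value, was applied to each of the 10 genes in each group of 4 libraries. It flagged 0 of these 20 sets, so tolvaptan replicate 4 is not an established outlier for these genes. Because its deviation over all genes was the largest, the changes of the 10 genes are given with and without it.

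The levels of the 10 transcripts ran from 3.12 TPM (Rel) to 388 TPM (Nfkbia), both in tolvaptan replicate 4. With dDAVP alone, Nfkbia was the most abundant, followed by Rela, Nfkb2, Nfkbib, Nfkb1, Nfkbiz, Relb, Nfkbie, Tnfaip3 and Rel. Neighbors in this order did not overlap over the 4 libraries, except Nfkbib and Nfkb1. With tolvaptan the order was the same apart from Nfkb1 and Nfkbib, whose ranges again overlapped, and the ranges of Nfkbie and Tnfaip3 overlapped as well. In 7 of the genes at least 1 library exceeded 10 TPM, the filter of the main comparison. Relb passed only through its tolvaptan libraries, and Rel, Nfkbie and Tnfaip3 stayed under the filter.

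**Figure D1:**
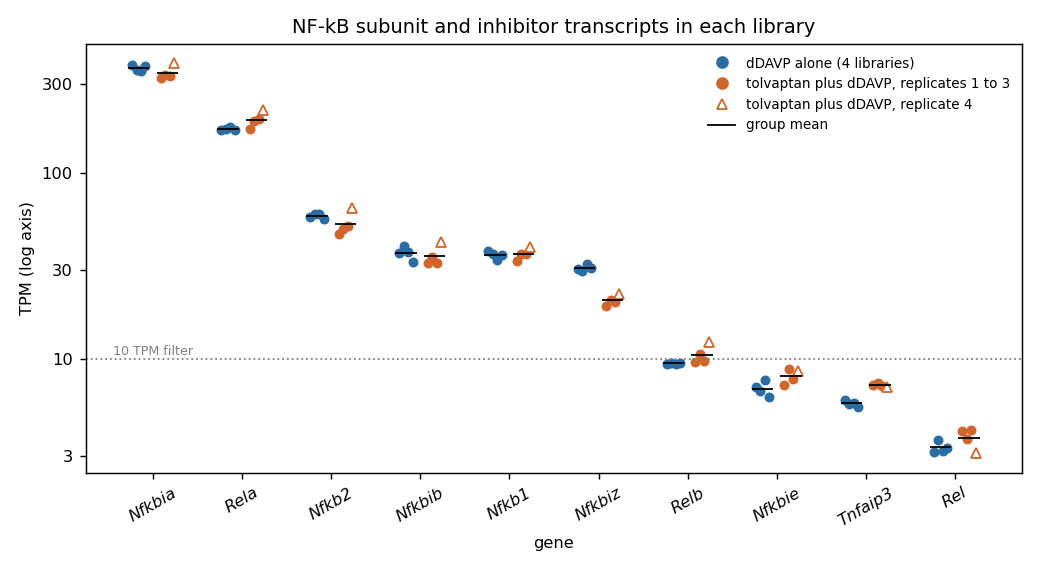
TPM on a log axis (y) of the 10 genes (x, by level) in each library, with points for libraries, an open triangle for tolvaptan replicate 4 and a line for the mean of each group (n = 4). Nfkbiz is lower in all 4 tolvaptan libraries (19.4 to 22.4 TPM) than in any dDAVP library (29.8 to 32.5 TPM).

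Of the 7 genes tested, 1 was lower with tolvaptan (Nfkbiz) and 0 were higher at an adjusted p under 0.05. Over all 9943 genes tested, 6.10% were lower and 10% were higher. At an unadjusted p under 0.05 stood 2 of the 7, Nfkbiz and, in the direction of higher values, Rela, while 30.9% of all genes did. Over all genes the median log2 fold change was 0.05, and the split of 607 genes lower and 994 higher became 825 and 576 with the libraries set to a common median and 680 and 612 with quantile normalization. Nfkbiz was the only one of the 7 called under either scaling.

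The subunits are taken first. Rela encodes p65, the subunit with a strong transactivation domain that forms the classical heterodimer with p50. Rela (ENSMUSG00000024927) was at 170.52, 172.22, 177.06 and 169.30 TPM in the dDAVP libraries and at 171.53, 189.09, 194.70 and 218.70 TPM in the tolvaptan libraries. Tolvaptan replicate 1 lay within the dDAVP range and the other 3 tolvaptan libraries lay above it. The tolvaptan mean was 194 ± 19.5 TPM and the dDAVP mean 172 ± 3.41 TPM (SD over 4 libraries each), and the log2 fold change was 0.16 (SE 0.07, 95% interval 0.02 to 0.31, unadjusted p = 0.0339, adjusted p = 0.126 from limma). Without tolvaptan replicate 1 the log2 fold change was 0.22 and passed (adjusted p = 0.0307 from limma), in a fit that called 10.4% of all genes higher. Without tolvaptan replicate 4 it was 0.10 (adjusted p = 0.139 from limma).

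Nfkb1 encodes p105, the precursor of p50, and the precursor itself can act as an IkB protein. Nfkb1 (ENSMUSG00000028163) was at 37.90, 36.46, 34.05 and 36.22 TPM with dDAVP alone and at 33.48, 36.64, 36.83 and 39.91 TPM with tolvaptan. The groups overlapped. Its log2 fold change was 0.02 (95% interval -0.11 to 0.15, adjusted p = 0.852 from limma), and it changed sign in 4 alternatives: -0.03 with a common median, -0.04 with quantile normalization, -0.0079 without dDAVP replicate 3 and -0.02 without tolvaptan replicate 4.

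Nfkb2 encodes p100, the precursor of p52 in the noncanonical pathway, which also holds RelB in the cytoplasm. Nfkb2 (ENSMUSG00000025225) was at 57.77, 60.29, 60.34 and 56.61 TPM with dDAVP alone and at 46.77, 50.12, 51.98 and 64.76 TPM with tolvaptan. Tolvaptan replicates 1 to 3 lay under every dDAVP library, and replicate 4 lay above all of them. The log2 fold change over the 8 libraries was -0.15 (SE 0.09, 95% interval -0.34 to 0.05, adjusted p = 0.288 from limma). Without tolvaptan replicate 4 it was -0.24 (SE 0.05, adjusted p = 0.00670 from limma), with a mean of 49.6 TPM in the remaining tolvaptan libraries. In GENCODE M21 an exon of Nfkb2 overlaps exons of Psd and of another gene model on the opposite strand, and reads of overlapping exons cannot be told apart where the counting is not stated to use strand.

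Relb encodes the usual partner of p52. Relb (ENSMUSG00000002983) was at 9.44, 9.51, 9.39 and 9.51 TPM with dDAVP alone and at 9.59, 10.70, 9.70 and 12.27 TPM with tolvaptan. All 4 tolvaptan libraries lay above the dDAVP libraries, replicates 1 and 3 by little. The log2 fold change was 0.14 (SE 0.10, 95% interval -0.08 to 0.36) and did not pass (adjusted p = 0.370 from limma); without tolvaptan replicate 4 it was 0.07 (adjusted p = 0.602 from limma) and with quantile normalization 0.027 (adjusted p = 0.893).

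Rel encodes c-Rel, a subunit best known from lymphocytes. Rel (ENSMUSG00000020275) was the lowest of the 10, at 3.16, 3.69, 3.19 and 3.34 TPM with dDAVP alone and at 4.11, 3.71, 4.14 and 3.12 TPM with tolvaptan. Tolvaptan replicates 1 to 3 lay above every dDAVP library and replicate 4 lay under all of them. The 2-sided exact permutation test gave p = 0.229, where 4 libraries against 4 cannot give less than 0.0286. With all genes over 1 TPM fitted, its log2 fold change was 0.13 (95% interval -0.10 to 0.36, adjusted p = 0.458 from limma). In that fit without tolvaptan replicate 4 it was 0.20 (SE 0.09, 95% interval -0.01 to 0.41, adjusted p = 0.182 from limma).

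The IkB inhibitors follow. Nfkbia encodes IkBa, the main feedback inhibitor, which is induced by NF-kB and degraded when IKK is active. Nfkbia (ENSMUSG00000021025) was at 381.10, 359.03, 352.81 and 375.86 TPM with dDAVP alone and at 323.39, 335.09, 330.88 and 387.50 TPM with tolvaptan. As for Nfkb2, tolvaptan replicates 1 to 3 lay under every dDAVP library and replicate 4 lay above all of them. The log2 fold change was -0.10 (SE 0.06, 95% interval -0.23 to 0.04, adjusted p = 0.301 from limma), and -0.049 with quantile normalization. Without tolvaptan replicate 4 it was -0.15 (SE 0.04, adjusted p = 0.0140 from limma), with a mean of 330 TPM in the remaining tolvaptan libraries. That fit called 3 of the 7 genes lower, Nfkbiz, Nfkb2 and Nfkbia, and 8.73% of all genes.

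Nfkbib encodes IkBb, which binds some of the same dimers. Nfkbib (ENSMUSG00000030595) was at 37.05, 40.34, 37.65 and 33.40 TPM with dDAVP alone and at 32.88, 35.29, 32.99 and 42.55 TPM with tolvaptan. Tolvaptan replicates 1 and 3 lay under every dDAVP library, replicate 2 lay among them and replicate 4 lay above them. The log2 fold change was -0.05 (95% interval -0.24 to 0.14, adjusted p = 0.730 from limma). It was -0.13 without tolvaptan replicate 4 (SE 0.06, 95% interval -0.27 to 0.01, adjusted p = 0.162 from limma), and with all 8 libraries it was -0.10 with a common median and -0.11 with quantile normalization. Exons of Nfkbib overlap those of Sirt2 and Ccer2 on the opposite strand in GENCODE M21, with the same limit as for Nfkb2.

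Nfkbie encodes IkBe, an inhibitor with slower feedback than IkBa. Nfkbie (ENSMUSG00000023947) was at 7.04, 6.69, 7.69 and 6.28 TPM with dDAVP alone and at 7.22, 8.79, 7.84 and 8.57 TPM with tolvaptan. Only tolvaptan replicate 1 lay within the dDAVP range. The 2-sided exact permutation test gave p = 0.0571, and the log2 fold change over 1 TPM was 0.20 (SE 0.08, 95% interval 0.01 to 0.39, adjusted p = 0.173 from limma), or 0.17 without tolvaptan replicate 4 (adjusted p = 0.230 from limma).

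Nfkbiz encodes IkBz, an atypical nuclear IkB protein that acts with p50 as a coactivator of secondary response genes such as those of acute phase and antimicrobial proteins. Nfkbiz (ENSMUSG00000035356) was at 30.45, 29.84, 32.47 and 30.90 TPM with dDAVP alone and at 19.36, 20.75, 20.15 and 22.37 TPM with tolvaptan. The groups did not overlap, and tolvaptan replicate 4 was nearest to the dDAVP libraries. Its mean fell by 33.2%, from 30.9 ± 1.12 to 20.7 ± 1.28 TPM (SD over 4 libraries each), and the log2 fold change was -0.56 (SE 0.06, 95% interval -0.69 to -0.43, adjusted p = 0.000159 from limma). Without tolvaptan replicate 4 the log2 fold change was -0.60 (adjusted p = 4.47e-05 from limma), and the call held in each of the 18 alternatives. The study itself lists this gene among the transcripts lowered by tolvaptan in these libraries, so its direction here is not independent evidence.

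The genes whose log2(TPM + 1) over the 8 libraries correlated most with that of Nfkbiz were Marveld1 (Pearson r = 0.993), Synpo (0.992), Clint1 (0.992), Elf3 (0.992) and Pim3 (0.991). These points share the split into 2 groups and the scaling to a common total, so any gene that differed between the groups with little spread would correlate as well, and no test is given.

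Tnfaip3 encodes A20, a ubiquitin-editing enzyme that is induced by NF-kB and switches off signaling upstream of IKK. Tnfaip3 (ENSMUSG00000019850) was at 6.03, 5.75, 5.77 and 5.53 TPM with dDAVP alone and at 7.22, 7.41, 7.19 and 7.08 TPM with tolvaptan. Every tolvaptan library lay above every dDAVP library, with little spread in either group. The means were 7.23 ± 0.137 and 5.77 ± 0.205 TPM (SD, n = 4 each), 25.2% higher with tolvaptan, and the 2-sided exact permutation test gave p = 0.0286, the smallest it can give. With all genes over 1 TPM fitted, Tnfaip3 rose by a log2 fold change of 0.28 (SE 0.06, 95% interval 0.14 to 0.42, adjusted p = 0.0218 from limma), and 6.92% of the genes in that fit were higher. Without tolvaptan replicate 4 the log2 fold change in that fit was 0.29 (adjusted p = 0.0209 from limma). With no filter the adjusted p was 0.0476 from limma. Other scalings were not run for this gene. The 2 genes that changed thus did so in opposite directions, and each is described as an inhibitor or regulator.

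**Figure D2:**
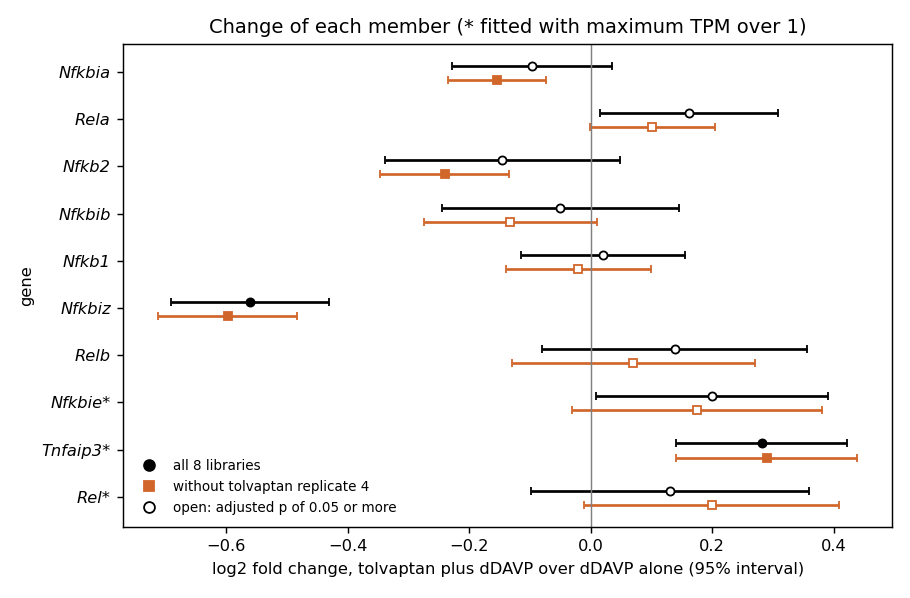
Log2 fold change of TPM + 1 (x, tolvaptan plus dDAVP over dDAVP alone) of each gene (y) with its 95% interval from limma, for all 8 libraries (circles) and without tolvaptan replicate 4 (squares), filled where the adjusted p is under 0.05. With all 8 libraries Nfkbiz (-0.56) and Tnfaip3 (0.28) are filled, and without replicate 4 Nfkb2 (-0.24) and Nfkbia (-0.15) are filled as well.

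The groups did not overlap in 3 of the 10 genes, Nfkbiz, Relb and Tnfaip3. Over all genes with a library above 1 TPM, 19.5% had groups that did not overlap.

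**Figure D3:**
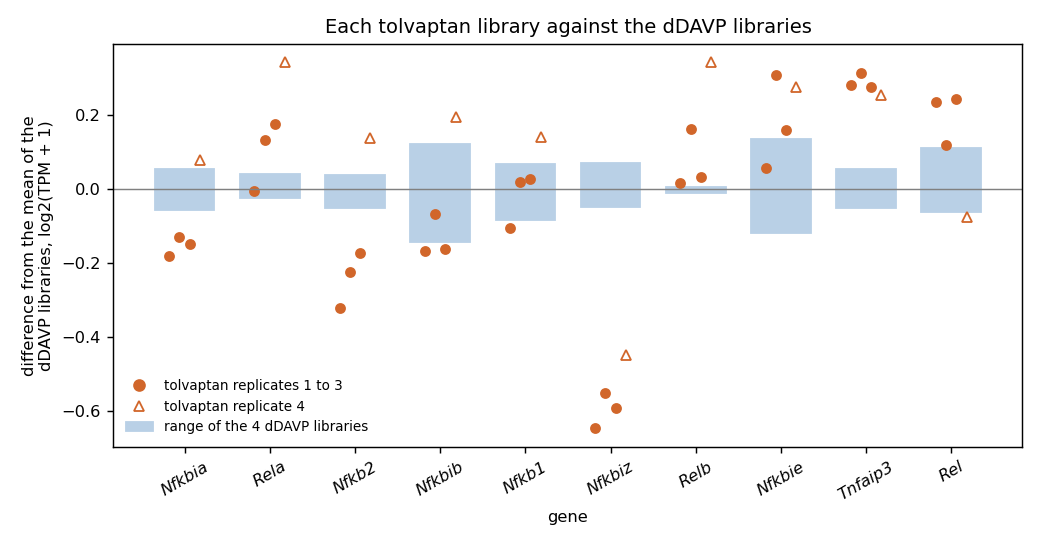
Difference of each tolvaptan library from the mean of the 4 dDAVP libraries in log2(TPM + 1) (y) for each gene (x), with the dDAVP range as a bar and tolvaptan replicate 4 as an open triangle. In Nfkb2, replicates 1 to 3 are at -0.32 to -0.17 and replicate 4 is at 0.14.

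The members also shifted relative to each other within a library. The sum of the 5 subunit transcripts was 275 to 284 TPM with dDAVP alone and 265 to 339 TPM with tolvaptan, and Rela made up 61.0% to 62.3% and 64.6% to 65.5% of it. The sum of the 5 inhibitor and regulator transcripts was 436 to 462 TPM with dDAVP alone and 390 to 468 TPM with tolvaptan. Its ratio to the subunit sum was 1.54 to 1.66 with dDAVP alone and 1.34 to 1.47 with tolvaptan, with no overlap. Nfkbia made up 80.8% to 83.2% of the inhibitor and regulator sum in the 8 libraries, so the level of this ratio mostly reflects Nfkbia and Rela. Its shift between the groups also holds a part from Nfkbiz. Nfkbiz made up 6.60% to 7.44% of the inhibitor and regulator sum with dDAVP alone and 4.78% to 5.09% with tolvaptan.

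The ratio of Nfkbia to Rela was 2.23, 2.08, 1.99 and 2.22 in the dDAVP libraries and 1.89, 1.77, 1.70 and 1.77 in the tolvaptan libraries, with means of 2.13 ± 0.115 and 1.78 ± 0.0768 (SD, n = 4 each). Tolvaptan replicate 4, which had the highest TPM of both genes, lay among the other tolvaptan libraries in this ratio. The ratio of Nfkb2 to Rela was 0.334 to 0.350 with dDAVP alone and 0.265 to 0.296 with tolvaptan, and that of Nfkbiz to Rela was 0.173 to 0.183 and 0.102 to 0.113. Relb, which passed the filter only through its tolvaptan libraries, was left out of the count of pairs. Among the 15 pairs of the other 6 tested genes, the groups did not overlap in 9, which were 5 of the 5 pairs that include Nfkbiz and 4 of the 10 that do not. Over all pairs of tested genes without a value of 0, 23.7% did not overlap. The pairs share members, the ratios were chosen after the values were seen, and a ratio within a library shows unequal change, not which transcript changed, so no test is given.

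**Figure D4:**
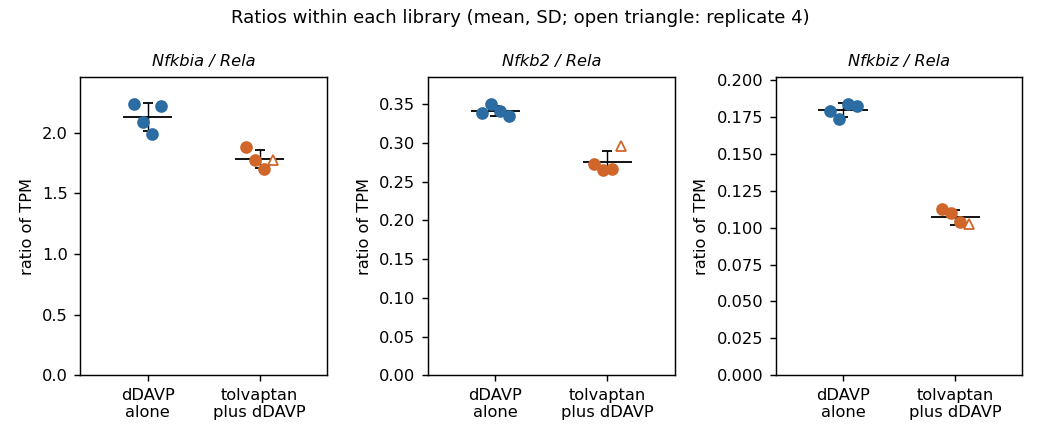
Ratio of TPM within each library (y, from 0) for Nfkbia to Rela, Nfkb2 to Rela and Nfkbiz to Rela in both groups (x), with points for libraries, an open triangle for replicate 4 and mean and SD as bars (n = 4). In each panel every tolvaptan library lies under every dDAVP library, as for Nfkbia to Rela (1.70 to 1.89 against 1.99 to 2.23).

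Because several of these genes are known to be induced by NF-kB itself, their promoters were read for kB consensus matches. RefSeq promoter entries on GRCm38.p6, which cover 250 bases before the start, were found for 7 of the 10 genes and not for Nfkb1, Relb and Nfkbiz. Both strands were searched for the NF-kB consensus of 10 bases. It was found in 5 of these 7 genes (Nfkb2, Nfkbia, Nfkbie, Rel and Tnfaip3), in 7 of the 10 entries of the 7 genes, against 7.25% of all 32851 entries. TGACG, the core of the cAMP response element, was found in 4 of the 7 (Nfkb2, Nfkbib, Rel and Tnfaip3), in 5 of the 10 entries, against 17.8% of all entries, and the full palindromic element in 0 of the 10, against 1.55%. A gene with several entries has more chances to hold a match, and the entries of Nfkb2 overlap in part. The cAMP element is included because the V2 receptor signals through cAMP. A match is a description of the letters, not evidence of binding. The windows below show the match nearest to the start with up to 30 bases on either side inside the 250 bases, 5′ to 3′ on the strand of the gene. Capitals mark every match in the window, with overlapping matches joined. Of the entries of Nfkb2 the first start is shown, and of Tnfaip3 the entry that holds a match. They lie at chr19:46304696-46304736 on the plus strand for Nfkb2, chr12:55492648-55492706 on the minus strand for Nfkbia, chr17:45555564-45555633 on the plus strand for Nfkbie, chr11:23771021-23771090 on the minus strand for Rel and chr10:19015411-19015452 on the minus strand for Tnfaip3.
Nfkb2: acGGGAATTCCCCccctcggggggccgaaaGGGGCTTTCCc
Nfkbia: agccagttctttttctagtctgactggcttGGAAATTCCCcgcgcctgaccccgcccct
Nfkbie: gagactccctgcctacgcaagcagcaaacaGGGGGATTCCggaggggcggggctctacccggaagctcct
Rel: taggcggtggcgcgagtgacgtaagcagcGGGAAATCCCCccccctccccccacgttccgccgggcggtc
Tnfaip3: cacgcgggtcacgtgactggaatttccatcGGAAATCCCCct
Of these 5 genes, Tnfaip3 was higher with tolvaptan, Nfkb2 and Nfkbia were lower only without tolvaptan replicate 4, and Nfkbie and Rel did not pass.

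Other genes of the pathway were placed in 5 lists of 113 genes, of which 67 passed the filter. Of these, 7 were lower and 7 were higher, 10.4% each, against 6.10% lower and 10% higher over all 9943 genes tested. The lists were written with some of the study's results on these libraries known. Among those known genes were C3, Lbp, Ier3 and Ptgs2, which are counted as lower. Ccnd1, counted as higher, passed the filter only through its tolvaptan libraries. The shares are therefore a description and not independent evidence about the pathway.

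Of 17 receptors, 10 were tested, with a median log2 fold change of 0.08. Il18r1, a subunit of the interleukin 18 receptor, rose from 37.6 ± 1.28 to 47.3 ± 3.08 TPM (SD, n = 4 each; log2 fold change 0.32, SE 0.06, adjusted p = 0.00416 from limma). Tnfrsf12a, the receptor for the cytokine TWEAK, rose from 186 ± 4.22 to 229 ± 19.6 TPM (0.30, SE 0.06, adjusted p = 0.00833 from limma). Tlr4, the receptor for bacterial lipopolysaccharide, fell from 19.3 ± 0.767 to 14.8 ± 2.46 TPM (-0.37, SE 0.11, adjusted p = 0.0482 from limma), a call lost in 11 of 18 alternatives, among them the fits without any 1 of the dDAVP libraries or of tolvaptan replicates 1 to 3, with an adjusted p of up to 0.166. Tnfrsf1a, the main receptor for TNF, did not pass (0.12, adjusted p = 0.230 from limma), and was at 0.07 without tolvaptan replicate 4 and 0.05 with quantile normalization.

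Of 27 adaptors and IKK-activating kinases, 19 were tested, with a median of 0.12, and 0 passed in either direction by limma, with 5 of the 19 at an unadjusted p under 0.05, against 30.9% of all genes. The smallest p-values were those of Tab1, a partner of the kinase TAK1 (0.17, adjusted p = 0.0584; 0.0221 without tolvaptan replicate 1), Bcl10 (0.15, 0.0897), Traf5 (-0.13, 0.0906; 0.0270 without tolvaptan replicate 4 and 0.0441 with a common median) and Traf6 (0.12, 0.0994; a log2 fold change of 0.05 with quantile normalization), all adjusted p from limma. All 6 genes of the IKK complex and related kinases were tested, with a median of -0.04, and 0 passed, with 2 of the 6 at an unadjusted p under 0.05, against the same 30.9%. Ikbkb, the catalytic subunit of canonical signaling, averaged 86.1 ± 3.90 TPM in the tolvaptan libraries and 77.6 ± 2.17 TPM in the dDAVP libraries (0.15, adjusted p = 0.0581 from limma). Ikbkg, the regulatory subunit NEMO, was at 51.6 ± 2.21 and 56.7 ± 1.75 TPM (-0.13, adjusted p = 0.0851 from limma), and passed with a common median (adjusted p = 0.0238) and with quantile normalization (0.0334). Chuk, the IKKa gene, had a log2 fold change of -0.11 and Tbk1 one of -0.09 (adjusted p = 0.319 and 0.343 from limma), and without tolvaptan replicate 4 they were at -0.046 and -0.038.

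Of 22 other inhibitors and regulators, 18 were tested, with a median of -0.05, 2 lower and 0 higher, against 6.10% lower and 10% higher over all genes. Neither of the 2 is an NF-kB inhibitor: Cebpd is a transcription factor of the acute phase response that acts beside NF-kB, and Skp1 is a subunit of the ubiquitin ligase that recognizes phosphorylated IkB. Cebpd fell from 22.2 ± 1.43 to 3.50 ± 0.692 TPM (SD, n = 4 each; log2 fold change -2.38, SE 0.12, adjusted p = 1.33e-06 from limma). Skp1 fell from 714 ± 15.0 to 638 ± 40.8 TPM (-0.16, adjusted p = 0.0458 from limma), a call lost in 12 of 18 alternatives, among them the fits without any 1 of the dDAVP libraries or of tolvaptan replicates 1 to 3, with an adjusted p of up to 0.162. Tnip2, an A20-binding protein (0.19, adjusted p = 0.0803; 0.0206 without tolvaptan replicate 3), and Rnf11, a partner of A20 (-0.21, adjusted p = 0.104; a log2 fold change of -0.14 without tolvaptan replicate 4), did not pass by limma with all 8 libraries.

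Of 41 target genes, 27 exceeded 1 TPM in at least 1 library and 14 could be tested, with a median of 0.11, 4 lower and 5 higher. Over all genes tested, 6.10% were lower and 10% were higher. Ier3, an early response gene, fell from 74.9 ± 3.58 to 29.6 ± 2.65 TPM (-1.31, SE 0.07), complement component C3 from 222 ± 14.3 to 67.3 ± 9.38 TPM (-1.71, SE 0.09), and Lbp, the lipopolysaccharide-binding protein, from 24.8 ± 0.650 to 12.9 ± 1.78 TPM (-0.90, SE 0.09, adjusted p = 0.000133 from limma). Lcn2, an iron-sequestering protein that is known as a target of IkBz, rose from 465 ± 5.96 to 610 ± 43.5 TPM (0.39, SE 0.05, adjusted p = 0.000633 from limma). The other called targets were Ptgs2, the inducible cyclooxygenase (-0.64, adjusted p = 0.00246), Gadd45b (0.52, 0.00300), Csf1 (0.42, 0.00376), Tnfaip2 (0.20, 0.0338) and Ccnd1 (0.38, 0.0405), all from limma. The calls of Tnfaip2 and Ccnd1 were lost in 10 of 18 and 11 of 17 alternatives, with an adjusted p of up to 0.118 and 0.145. Ccnd1, counted among the 5 higher, passed the filter only through its tolvaptan libraries, so its call is not taken as support. It was at 7.03 to 9.05 TPM with dDAVP alone and at 9.94 to 12.26 TPM with tolvaptan. The 4 targets that fell are named in the study's own tables or figure labels on these libraries, so their direction is not independent evidence. Il6, Tnf, Il1b, Icam1, Vcam1, Nos2 and Saa1, Saa2 and Saa3, targets often measured in inflamed tissue, had group means under 1 TPM. The chemokine gene Ccl2 did as well. Cxcl1, Cxcl2, Cxcl10, Ccl5 and Ccl20 had group means of 1.12 to 2.68 TPM, with groups that overlapped. Cxcl5 was at 1.93 TPM with dDAVP alone and 0.595 TPM with tolvaptan. Its groups did not overlap, as in 19.5% of all genes with a library above 1 TPM.

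**Figure D5:**
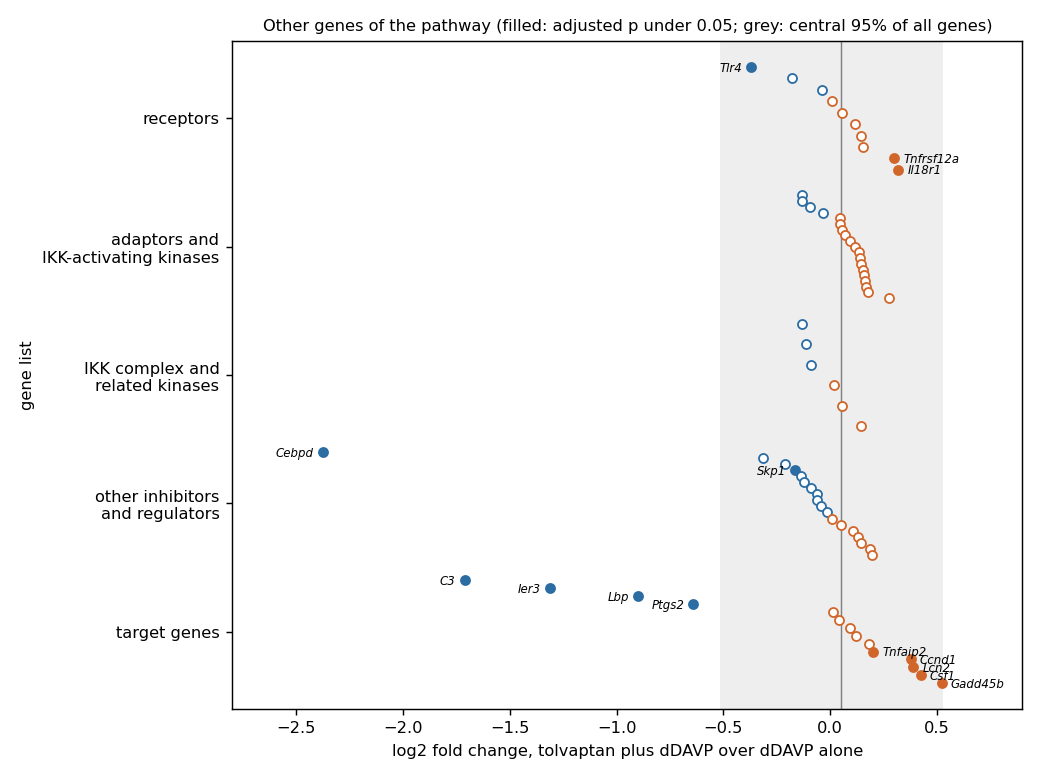
Log2 fold change of TPM + 1 (x, tolvaptan plus dDAVP over dDAVP alone) of the 67 tested genes of 5 pathway lists (y, ordered by value within a list), filled and named where the adjusted p from limma is under 0.05, with the median of all genes (line, 0.05) and the central 95% of all genes (grey, -0.51 to 0.52). Cebpd, C3, Ier3, Lbp and Ptgs2 lie under the grey range, and no gene of the adaptor or IKK lists is filled.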

How the data were processed

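RNA of mpkCCD cells was converted to cDNA with a SMARTer V4 kit and sequenced in pairs. Per the labels, the authors used STAR and RSEM, and the deposited table holds TPM, aligned to mouse Ensembl release 106. Columns were matched to samples by group and replicate number. Doses and the time are those of the study's methods.

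Genes with a maximum TPM over 10 (9943) were compared on the scale log2(TPM + 1), which understates changes of low genes, by limma 3.58.1 in R 4.3.3 (eBayes with a trend, 2-sided, unpaired), with Benjamini-Hochberg adjustment over all of them. Genes under the filter were compared by an exact permutation test and in a fit over 1 TPM. The DESeq2 test the methods name needs counts and was not run.

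All members, the 4 genes with the smallest p of each list, Aqp2, Avpr2 and the 5 genes most like Nfkbiz were named by rule. Ptgs2, Gadd45b, Csf1, Tnfaip2, Ccnd1, the targets under 1 TPM, the chemokines, single markers and the ratios were chosen after their values were seen. Members and lists were chosen with earlier results of these data known. Scripts were tested on simulated data. GENCODE M21 and RefSeq (GRCm38.p6) are other builds than the authors' and were used only for exon overlaps and promoter sequence. Alternatives covered the pseudocount, filter, scaling, variance model, replicate block and each library left out.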

Additional observations from a re-analysis of the deposited data

How the results depend on the processing

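Nfkbiz kept its fall in all 18 alternatives, with log2 fold changes of -0.64 to -0.49. The count of the 10 genes lower with tolvaptan was 1 in each alternative except without tolvaptan replicate 4, where it was 3 (1 to 3 over the fits that leave out 1 library). The count of genes higher was 0 with the 10 TPM filter, 1 at a maximum TPM over 1 and 1 with no filter. The gene was Tnfaip3 in both, with an adjusted p of 0.0476 from limma with no filter. Its fit was not repeated with a common median, with quantile normalization or without any library but tolvaptan replicate 4. Over the fits that leave out 1 library the count was 0 to 1, with Rela called without tolvaptan replicate 1. Nfkb1 reversed to -0.025 with a common median and -0.036 with quantile normalization, and ran from -0.020 (without tolvaptan replicate 4) to 0.062 (without tolvaptan replicate 1) over the fits that leave out 1 library, with -0.0079 without dDAVP replicate 3. It passed in none of the 18. The cause of these changes was not tested beyond the construction of each fit. Of the pathway lists, 5 to 9 genes were lower and 5 to 8 higher over all alternatives. Over all genes, 825 were lower and 576 higher with a common median, 680 and 612 with quantile normalization and 422 and 498 with no filter, against 607 and 994.

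With a replicate block, 1 of the 10 genes was lower and 0 were higher, 5 genes of the pathway lists were lower and 5 were higher, and 396 of all genes were lower and 515 higher. Same-numbered libraries did not deviate together (correlations of -0.07 to -0.0046), so the numbers were not taken as pairs.

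Read depth is not known, and 3 of the 10 genes stayed under 10 TPM. One library decides whether Nfkb2 and Nfkbia pass, and another whether Rela does. The table gives transcripts only, while NF-kB activity is set largely by IkB degradation and nuclear entry, which were not measured here.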
